A study of Rattus norvegicus with 20 samples.

Results

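The tumour necrosis factor gene Tnf, the interleukin 6 family ligands Il6, Lif and Osm, the oncostatin M receptor subunit Osmr, the granulocyte colony-stimulating factor Csf3 with its receptor Csf3r, the feedback inhibitor Socs3 and the transcription factor Stat3 were followed across 5 groups of rats. These 9 genes were taken by name from the gene column of the array files, out of 13597 genes tested. Each had 1 probe on the array, printed in 10 spots for Il6, in 1 spot for Stat3 and in 2 spots for each of the others. The 9 genes passed the filter on dim probes, which asked for a signal well above background on at least 4 arrays. Il6 was well above background on 5 arrays, 3 of untreated and 2 of high-dose rats, so its probe was kept only through those groups.

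The samples were whole oesophageal tissue of Wistar rats, by the labels 4 rats a group, with 4 single-colour arrays a group. Reflux oesophagitis was produced by surgery in 4 groups, and the fifth group was sham operated. The oesophagitis groups received no drug, the herbal preparation STW5 at 0.5 ml/kg (low dose) or 2 ml/kg (high dose), or the proton pump inhibitor omeprazole at 30 mg/kg, for 7 days before and 10 days after surgery. No treated sham group was analysed here, so drug and surgery were always combined in the treated rats. Labels for the STW5 doses conflict: the sample titles and the study description number the doses in opposite order, and the deposited value table holds each STW5 scan under the other dose. Doses are named here by the titles of the scanner files, and exchanging them exchanges every low-dose and high-dose value.

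The arrays had 61.5% to 70.5% of features well above background and no saturated feature. The 12 markers of squamous epithelium tested, Krt4 and Krt13 among them, were well above background on 20 of 20 arrays. Low-dose replicates 1 and 2 differed by little more than spots of 1 array do, with a ratio of the spreads of 1.34. The next closest pair within a group had 2.66. Low-dose replicates 1 and 2 were averaged and counted as 1 sample, which left 19. Whether they came from the same rat or the same RNA was not tested. Sham replicate 2 stood apart from the other sham arrays: its summed level of 13 neutrophil markers was 5.51 on the log2 scale, against 0.80 to 1.15 in the other 3. Sham replicate 4 stood apart in 8 markers of glandular stomach and small intestine, with a summed level of 5.39 against -1.69 to 0.06 on the other sham arrays. Slide 1 held the sham arrays, slide 2 the untreated and low-dose arrays and slide 3 those of the high-dose and omeprazole rats. Only low dose against untreated and high dose against omeprazole could therefore be compared within a slide, and in every other comparison slide and group cannot be told apart.

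TNF is an early cytokine of inflamed tissue that acts through NF-kB, a transcription factor which in turn raises many cytokine genes. IL-6, LIF and oncostatin M bind receptors that share the subunit gp130, encoded by Il6st, and signal through JAK kinases to STAT3, while G-CSF acts on neutrophils and their precursors through its own receptor, which also signals to STAT3. STAT3 induces Socs3, whose product binds gp130, the G-CSF receptor and the JAK kinases and dampens the signal. In the oesophagus exposed to refluxed acid, cytokine release by the epithelium and the arrival of leukocytes are described as parts of the injury.

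Levels below are log2 signals relative to the 75th percentile of the same array, so a negative level is a signal under that percentile, and levels of different genes are not comparable because their probes differ. A difference is given on the log2 scale ± SE from the limma fit over all 5 groups, and was called at a Benjamini-Hochberg adjusted p under 0.05. Sequences are shown for the probes of 3 genes that differed between untreated and sham rats, a receptor, an inhibitor and a ligand, and for the Il6 promoter, which held an NF-kB motif before its start. The probe for Csf3r (rn4, chr5:145393491-145393550, plus strand), that for Socs3 (rn4, chr10:107958636-107958695, minus strand, with the stop codon in capitals) and that for Osm (rn4, chr14:84859880-84859939, plus strand) were these, 5′ to 3′:
Csf3r: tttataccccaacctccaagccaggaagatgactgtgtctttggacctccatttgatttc
Socs3: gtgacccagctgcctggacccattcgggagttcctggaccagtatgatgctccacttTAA
Osm: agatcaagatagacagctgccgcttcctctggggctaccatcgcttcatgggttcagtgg

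Promoter windows from RefSeq (GRCr8, 250 bases before to 50 after the start) were matched for 6 of the 9 genes: Tnf, Il6, Osmr, Csf3r, Socs3 and Stat3. The NF-kB motif searched, GGGA and CC with any 4 bases between them, on both strands, was found in 2 of these 6 windows and in 19.3% of 33469 promoter windows of the same length. In Il6 it matched on both strands in 2 overlapping positions, beginning 68 and 67 bases before the start, and in Tnf it matched at base 7 after the start. The STAT motif, TTC and GAA with any 3 bases between them, reads alike on both strands. It was found in 0 of the 6 windows and in 8.87% of all windows. The Socs3 bases searched before its start, chr10:103694769-103695018 on the minus strand, lay inside the gene, which spans 103692579-103695975. Sequence upstream of the whole Socs3 gene was therefore not searched. The windows of Osmr, Csf3r and Stat3 also began their start inside the gene span, whereas those of Tnf and Il6 did not. A match is a string of letters and not a measured binding site. The 250 bases before the start of Il6 (GRCr8, chr4:5894576-5894825, minus strand) are shown with the overlapping NF-kB matches in capitals:
Il6: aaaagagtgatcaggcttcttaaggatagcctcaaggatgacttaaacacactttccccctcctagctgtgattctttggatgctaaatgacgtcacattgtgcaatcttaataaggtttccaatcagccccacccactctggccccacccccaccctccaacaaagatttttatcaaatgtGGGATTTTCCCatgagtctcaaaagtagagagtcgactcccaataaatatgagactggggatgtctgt

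The first comparison asked what untreated reflux oesophagitis did to these genes relative to sham surgery. Tnf, Il6, Osm, Osmr, Csf3, Csf3r and Socs3 were higher in untreated than in sham rats, 7 of 9 against 15.0% of all genes tested called higher, and Lif and Stat3 were not called. Without Il6, whose probe passed the filter only through untreated and high-dose arrays, the count was 6 of 8. It was 7 of 9 without sham replicate 2 and also 7 of 9 without sham replicate 4. For 6 of the 7, every untreated array lay above every sham array, which held for 11.7% of all genes. The median difference of the 9 genes was 2.89, against -0.085 over all genes, and remained 2.89 with Il6 and Osmr at the lower bounds given below.

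Among the ligands, Tnf stood at -4.45, -2.78, -5.63 and -3.85 on the sham arrays and at 0.12, -1.29, 1.56 and -0.14 on the untreated arrays. The groups did not overlap, and the difference of 4.24 ± 0.70 (n = 4 and 4, adjusted p = 0.000496) was an 18.9-fold rise. Sham replicate 3 was not above background, and the difference was 2.98 to 5.04 over 20 alternatives, called in each. Csf3, the ligand that drives neutrophil production and survival, stood at -1.32, -0.50, -2.16 and -2.49 on sham and at 1.13, 0.24, 2.49 and 2.89 on untreated arrays. It rose by 3.31 ± 0.61 (adjusted p = 0.000982), with sham replicate 2 the highest sham array and untreated replicate 2 the lowest untreated array.

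Osm, a ligand released mainly by activated leukocytes, stood at -6.02, -5.54, -6.48 and -5.82 on sham and at -2.92, -4.35, -2.46 and -2.57 on untreated arrays, a rise of 2.89 ± 0.52 (adjusted p = 0.000873). Its groups did not overlap either. Sham replicate 1 was not above background, and the other sham arrays were above it in 1 of 2 spots each. Over 20 alternatives the difference was 0.95 to 3.31 and was called in each, so its size depends on the processing. Il6 was not well above background on any sham array and reached -5.64, -6.79, -1.58 and -2.96 on the untreated arrays, of which replicate 2 was not above background. Untreated replicates 3 and 4 thus carried most of the Il6 signal and replicate 2 lay among the sham arrays. The rise of Il6 was at least 2.44-fold (adjusted p = 0.0136 for a fitted difference of 2.77 ± 0.79), where a bound sets the mean of the brighter group against the lowest signal well above background on each array of the dim group, or the probe's own signal where that is higher. The call was lost with normexp background correction (0.76, adjusted p = 0.106), with signals raised to the lowest level well above background (1.47, adjusted p = 0.0965) and with only the 2 groups compared (adjusted p = 0.0876). Lif, a gp130 ligand of epithelial and stromal cells, lay between -6.89 and -5.06 on all 20 arrays, was above background on 10 of them, and differed by -0.37 ± 0.27 (95% interval -0.94 to 0.19, adjusted p = 0.302).

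Of the receptors, Csf3r stood at -7.35, -3.23, -7.78 and -5.80 on the sham arrays and at -0.36, -2.13, -0.01 and -0.75 on the untreated arrays. Only sham replicate 2 was well above background among the sham arrays, and every untreated array lay above it. The difference of 5.23 ± 1.06 (adjusted p = 0.00178) therefore depends on the background step. It was 4.07 with signals raised to the lowest level well above background (adjusted p = 0.000936), 2.55 with normexp (adjusted p = 0.000331) and 6.16 without sham replicate 2. Osmr, the subunit that with gp130 forms an oncostatin M receptor, was not above background on the sham arrays and stood at -4.31, -5.01, -4.06 and -4.76 on the untreated arrays. Its rise was at least 1.99-fold (adjusted p = 0.000695 for a fitted 2.05 ± 0.36), and under a normexp background correction the difference was 0.27 with adjusted p = 0.103, so the call depended on the background step.

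Socs3, the feedback inhibitor, stood at -3.77, -2.56, -3.95 and -4.28 on sham and at -0.47, -1.71, 0.16 and 0.81 on untreated arrays. Its groups did not overlap and it rose 10.1-fold, by 3.33 ± 0.62 (adjusted p = 0.00108). Stat3 itself stood at 0.05, 0.56, 0.36 and 0.44 on sham and at 0.53, 0.49, 1.14 and 0.50 on untreated arrays, with 3 of the 4 untreated arrays inside the sham range. Its difference was 0.31 ± 0.18 (95% interval -0.07 to 0.70, adjusted p = 0.205). The arrays measure mRNA, and phosphorylation of the STAT3 protein was not measured.

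**Figure D1:**
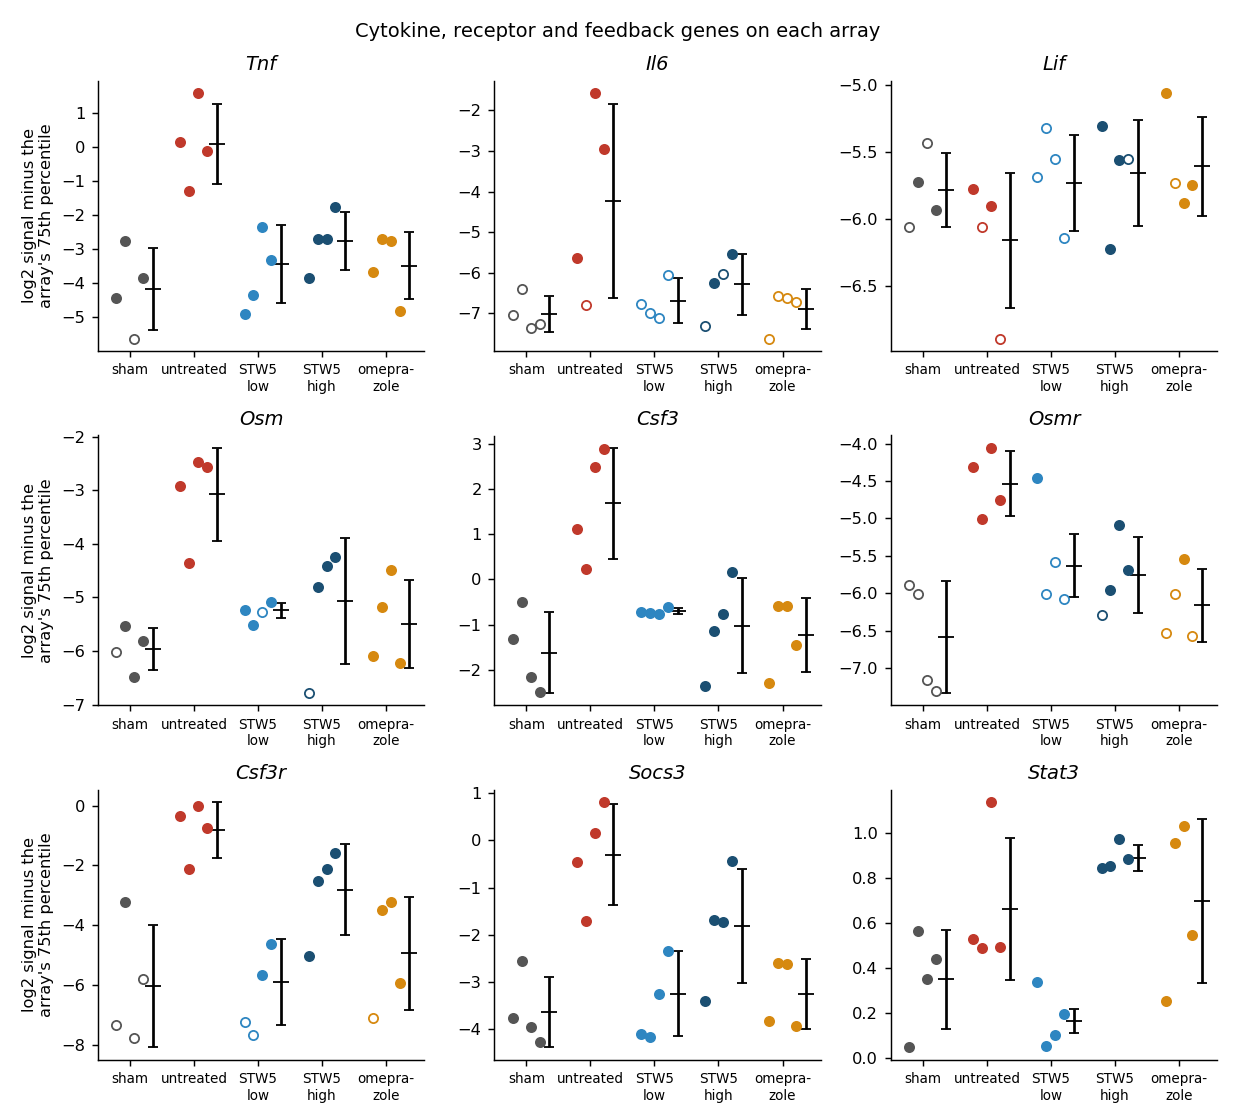
Level of each gene on each of the 20 arrays by group, as log2 signal minus the 75th percentile of the array. Filled points are well above background, open points are not, and the bar to the right is the group mean ± SD (n = 4, and n = 3 for low-dose STW5, whose replicates 1 and 2 were averaged). Untreated arrays stand above sham for Tnf, Osm, Csf3, Osmr, Csf3r and Socs3, Lif stays between -6.89 and -5.06 throughout, and the high-dose arrays of Stat3 lie between 0.85 and 0.98.

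The pathway genes around these 9 were read from lists whose counts stand beside the same 15.0% called higher and 17.9% called lower over all genes. On the TNF side, 8 of 18 genes for TNF receptors and signalling were higher and 0 lower, with a median difference of 0.44. Tnfrsf1b, the TNF receptor found mainly on leukocytes, was higher by 4.18 ± 0.64 (adjusted p = 0.000355) and the broadly expressed receptor Tnfrsf1a by 0.83 ± 0.16 (adjusted p = 0.00151). Of 13 genes of NF-kB feedback and TNF response, 9 were higher and 0 lower. They included the inhibitor Nfkbie at 2.15 ± 0.26 (adjusted p = 0.000181), the inhibitor Nfkbia at 1.72 ± 0.26 (adjusted p = 0.000345) and the hyaluronan-binding Tnfaip6 at 3.16 ± 0.38 (adjusted p = 0.000181).

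On the gp130 side, 3 of 6 other ligand genes of the family were higher and 1 lower. Ebi3, a subunit of heterodimeric cytokines of the family, was higher by 4.34 ± 0.53 (adjusted p = 0.000181) and cardiotrophin 1, Ctf1, lower by 0.88 (difference -0.88 ± 0.22, adjusted p = 0.00627). Of 4 other receptor genes tested, Il6r rose by 1.46 ± 0.25 (adjusted p = 0.000622) and the shared subunit Il6st by 0.88 ± 0.29 (adjusted p = 0.0266), while the LIF receptor Lifr changed by -0.78 ± 0.25 (adjusted p = 0.0230). Among JAK kinases and the other STATs 6 of 8 were higher and 0 lower, including Jak2 at 1.23 ± 0.27 (adjusted p = 0.00263) and Jak3, a kinase of lymphoid and myeloid cells, at 3.12 ± 0.50 (adjusted p = 0.000449).

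Other feedback genes of the JAK and STAT pathway moved in 6 of 14 cases, each upward, among them Socs2 at 2.18 ± 0.45 (adjusted p = 0.00195) and the phosphatase Ptpn6 at 2.03 ± 0.28 (adjusted p = 0.000210). Ptprc, the leukocyte phosphatase CD45, is in the same list and rose by 3.25 ± 0.52 (adjusted p = 0.000409). Of 23 known STAT3 target genes 14 were higher and 0 lower, with a median of 2.02, among them haptoglobin, Hp, at 5.63 ± 0.82 (adjusted p = 0.000266) and the protease inhibitor Timp1 at 4.55 ± 0.72 (adjusted p = 0.000405). Of 8 other colony-stimulating factor and receptor genes 4 were higher, including the macrophage receptor Csf1r at 2.25 ± 0.38 (adjusted p = 0.000531).

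Markers of neutrophils, macrophages and T and NK cells moved in the same comparison, and those of mast cells little. Of 13 neutrophil markers 11 were higher in untreated rats, and their summed log2 level was 0.80 to 5.51 on sham and 4.80 to 8.12 on untreated arrays. Of 14 macrophage and monocyte markers 14 were higher, with summed levels of 4.51 to 6.72 and 7.79 to 8.70. Of 9 T and NK cell markers 8 were higher, as were 5 of 9 endothelial and 4 of 9 fibroblast markers. Only 1 of 7 mast cell markers was higher, beside 15.0% of all genes. Of 12 squamous epithelial markers 8 were lower, as were 6 of 11 skeletal muscle and 4 of 7 smooth muscle markers. The part of these cell shifts in the values of the 9 genes was not tested, and in whole tissue more cells of a type and more RNA per cell cannot be told apart. The neutrophil granule genes Ltf and Elane were near background, above it on 1 of 20 arrays each. Klrb1, Ncr1 and Gzmb of the T and NK cell list were above it on 0, 1 and 2 of 20 arrays. They were too dim to be tested, so the T and NK cell counts leave them out.

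**Figure D2:**
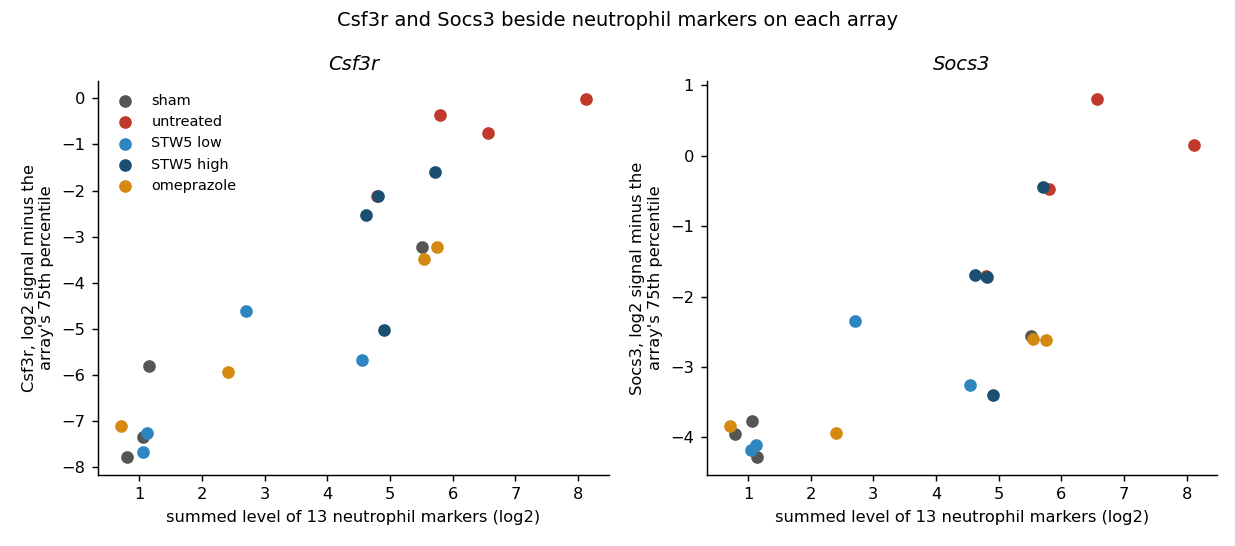
Level of Csf3r (left) and Socs3 (right), as log2 signal minus the 75th percentile of the array, against the summed log2 level of 13 neutrophil markers, 1 point an array and 20 arrays in 5 groups. Arrays with a low marker sum (0.71 to 1.15) hold low Csf3r and Socs3, sham replicate 2 (5.51) lies near the omeprazole arrays at 5.54 and 5.75, and 3 of the 4 untreated arrays lie above every other array in Csf3r.

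The drug comparisons asked whether the same genes were lower in treated than in untreated oesophagitis. They share the untreated rats as reference and are given side by side. With low-dose STW5, 7 of 9 genes were lower against 15.9% of all genes, the same number with omeprazole against 12.2%, and 4 of 9 with high-dose STW5 against 4.38%. Without Il6 the counts were 6 of 8 with low dose, 6 of 8 with omeprazole and 4 of 8 with high dose. The genes called lower with low-dose STW5 and with omeprazole were in each case Tnf, Il6, Osm, Osmr, Csf3, Csf3r and Socs3, and with high-dose STW5 they were Tnf, Osm, Osmr and Csf3. The median difference over the 9 genes was -2.39 for low dose (-2.16 with Il6 at its bound), -1.98 for high dose and -2.65 for omeprazole (-2.42 with Il6 at its bound), against 0.17, -0.012 and 0.098 over all genes.

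**Figure D3:**
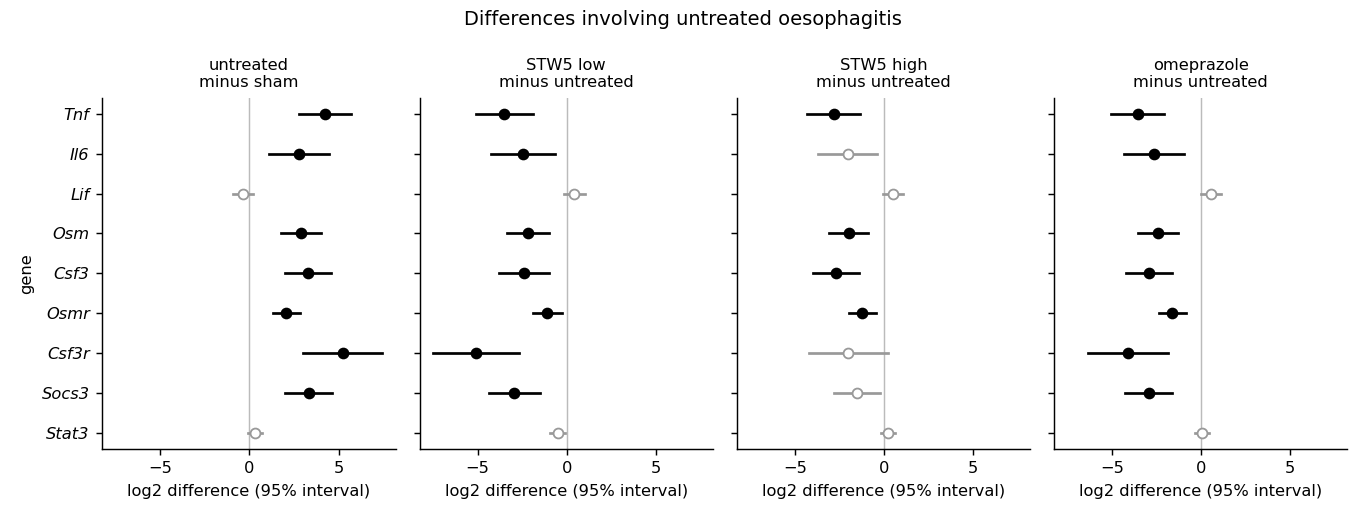
Difference of each gene (log2, point) with its 95% interval (line) in untreated minus sham rats and in each treated group minus untreated rats. Filled black points are past an adjusted p of 0.05 and open grey points are not. In the high-dose panel Csf3r and Socs3 are at -2.00 and -1.51 and open, whereas they are at -5.11 and -2.94 with low dose and at -4.13 and -2.95 with omeprazole.

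Tnf stood at -4.90, -4.36, -2.35 and -3.32 on the low-dose arrays, at -3.87, -2.71, -2.70 and -1.78 on the high-dose arrays and at -3.69, -2.72, -2.76 and -4.82 on the omeprazole arrays. Every treated array lay below every untreated array. The differences were -3.50 ± 0.75 (adjusted p = 0.00199), -2.83 ± 0.70 (adjusted p = 0.0198) and -3.57 ± 0.70 (adjusted p = 0.00177). Ordered by group mean, Tnf ran from sham (-4.18 ± 1.19, SD, n = 4) through omeprazole (-3.50 ± 0.99), low dose (-3.44 ± 1.14, n = 3) and high dose (-2.77 ± 0.85) to untreated (0.065 ± 1.17), and only the last step exceeded the spread within the neighbouring groups.

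Csf3 stood at -0.72, -0.74, -0.75 and -0.61 on the low-dose, -2.36, -1.14, -0.77 and 0.17 on the high-dose and -2.28, -0.59, -0.59 and -1.44 on the omeprazole arrays. All of these lay below the untreated arrays, with high-dose replicate 4 close under the lowest of them. The differences were -2.39 ± 0.66 (adjusted p = 0.00973), -2.71 ± 0.61 (adjusted p = 0.0125) and -2.91 ± 0.61 (adjusted p = 0.00276). The low-dose arrays of Csf3 were tightly grouped, with an SD of 0.076 against 0.81 to 1.23 in the other groups.

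Osm stood at -5.23, -5.51, -5.26 and -5.09 on the low-dose, -6.78, -4.81, -4.41 and -4.24 on the high-dose and -6.10, -5.19, -4.49 and -6.22 on the omeprazole arrays. High-dose replicate 4 lay above the lowest untreated array, at -4.35, and every other treated array below it. The differences were -2.16 ± 0.57 (adjusted p = 0.00702), -1.98 ± 0.52 (adjusted p = 0.0265) and -2.42 ± 0.52 (adjusted p = 0.00337). Low-dose replicate 3 and high-dose replicate 1 were not above background. Over the alternatives the differences ran from -2.59 to -0.70, from -2.41 to -0.95 and from -2.85 to -1.09. The high-dose call held in 14 of 21 alternatives, the low-dose call in 22 of 22 and the omeprazole call in 20 of 20.

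Il6 was not well above background on any low-dose or omeprazole array, and its falls were at least 2.07-fold (adjusted p = 0.0333) and at least 2.84-fold (adjusted p = 0.0202). These calls rest on untreated replicates 3 and 4: without replicate 3 the adjusted p was 0.0972 for low dose and 0.0662 for omeprazole, and without replicate 4 it was 0.0873 and 0.0639. The calls were also lost without low-dose replicate 3 (adjusted p = 0.103) and without omeprazole replicate 1 (adjusted p = 0.0559). With signals raised to the lowest level well above background neither was called (adjusted p = 0.174 and 0.0643), and with normexp the low-dose call was lost (adjusted p = 0.224). On the high-dose arrays Il6 stood at -7.31, -6.26, -6.03 and -5.53, above background in replicates 2 and 4, with a difference of -2.04 ± 0.79 (adjusted p = 0.107) that became -2.89 with adjusted p = 0.0114 without untreated replicate 2. Lif was not called in any of the comparisons, with differences from untreated of 0.43, 0.50 and 0.55.

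Csf3r stood at -7.26, -7.68, -5.67 and -4.62 on the low-dose arrays, at -5.04, -2.52, -2.11 and -1.59 on the high-dose arrays and at -7.11, -3.48, -3.23 and -5.93 on the omeprazole arrays. The low-dose and omeprazole arrays lay below every untreated array, whereas high-dose replicates 3 and 4 lay above untreated replicate 2 at -2.13. Csf3r fell by 5.11 ± 1.14 with low dose (adjusted p = 0.00254) and by 4.13 ± 1.06 with omeprazole (adjusted p = 0.00902). Only 2 of the 4 low-dose and 3 of the 4 omeprazole arrays were well above background. With signals raised to the lowest such level the differences were -4.22 and -3.75, and with normexp they were -2.48 and -2.51. With high dose the difference of -2.00 ± 1.06 was not called (95% interval -4.23 to 0.23, adjusted p = 0.227).

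Osmr stood at -4.47, -6.02, -5.58 and -6.08 on the low-dose arrays, of which only replicate 1 was above background. Low-dose replicate 1 was inside the untreated range and replicate 2, its near-identical partner, was not, so the averaged value of -5.24 lies under the untreated arrays. On the high-dose arrays Osmr stood at -6.29, -5.96, -5.09 and -5.68 and on the omeprazole arrays at -6.53, -6.01, -5.55 and -6.57. Osmr was above background on 3 of the 4 high-dose arrays and on 1 of the 4 omeprazole arrays. The differences from untreated were -1.10 ± 0.39 (adjusted p = 0.0345), -1.22 ± 0.36 (adjusted p = 0.0424) and -1.63 ± 0.36 (adjusted p = 0.00378). Over the alternatives the low-dose call held in 15 of 22, the high-dose call in only 10 of 21 and the omeprazole call in 20 of 20. The omeprazole difference ran from -1.83 to -0.51. The low-dose call was lost without untreated replicate 1 or 3 or low-dose replicate 2, 3 or 4, with adjusted p of 0.0730 to 0.133, and under normexp correction the difference was 0.045.

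Socs3 stood at -4.11, -4.18, -3.25 and -2.35 on the low-dose arrays, at -3.40, -1.69, -1.73 and -0.45 on the high-dose arrays and at -3.83, -2.60, -2.62 and -3.94 on the omeprazole arrays. No low-dose or omeprazole array reached the untreated range, while 2 high-dose arrays did. Socs3 fell by 2.94 ± 0.67 with low dose (adjusted p = 0.00297) and by 2.95 ± 0.62 with omeprazole (adjusted p = 0.00299), and with high dose the difference was -1.51 ± 0.62 (95% interval -2.83 to -0.20, adjusted p = 0.125). Without untreated replicate 2 the high-dose value was -1.98 with adjusted p = 0.0421. By group mean Socs3 ran from sham (-3.64 ± 0.75, SD) through omeprazole (-3.25 ± 0.74) and low dose (-3.25 ± 0.90) to high dose (-1.82 ± 1.21) and untreated (-0.30 ± 1.07).

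Stat3 was called in none of these 3 comparisons. It stood at 0.34, 0.06, 0.11 and 0.20 on the low-dose arrays, at 0.85, 0.85, 0.98 and 0.89 on the high-dose arrays and at 0.26, 0.96, 1.03 and 0.55 on the omeprazole arrays. Every low-dose array lay below every untreated array, with a difference of -0.50 ± 0.20 (95% interval -0.91 to -0.08, adjusted p = 0.0572), which passed the threshold without low-dose replicate 1 (adjusted p = 0.0400). The differences for high dose and omeprazole were 0.23 ± 0.18 (adjusted p = 0.439) and 0.03 ± 0.18 (adjusted p = 0.908).

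The high-dose calls changed when single arrays were left out. High-dose replicate 1 was the lowest high-dose array for Tnf, Il6, Osm, Osmr, Csf3, Csf3r and Socs3, and without it 0 of the 9 genes were called, with differences of -2.46 for Tnf (adjusted p = 0.0811), -2.27 for Csf3 (adjusted p = 0.0554), -1.41 for Osm (adjusted p = 0.0928) and -1.04 for Osmr (adjusted p = 0.145). The count was 2 without untreated replicate 1, 1 without untreated replicate 3, 2 without untreated replicate 4 and 2 without high-dose replicate 2. Within slide 2, the low-dose comparison called 6 of the 9 genes and 2798 genes in all, with Il6 at an adjusted p of 0.166. A call with low dose and none with high dose is not a difference between the doses, which was tested directly.

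**Figure D4:**
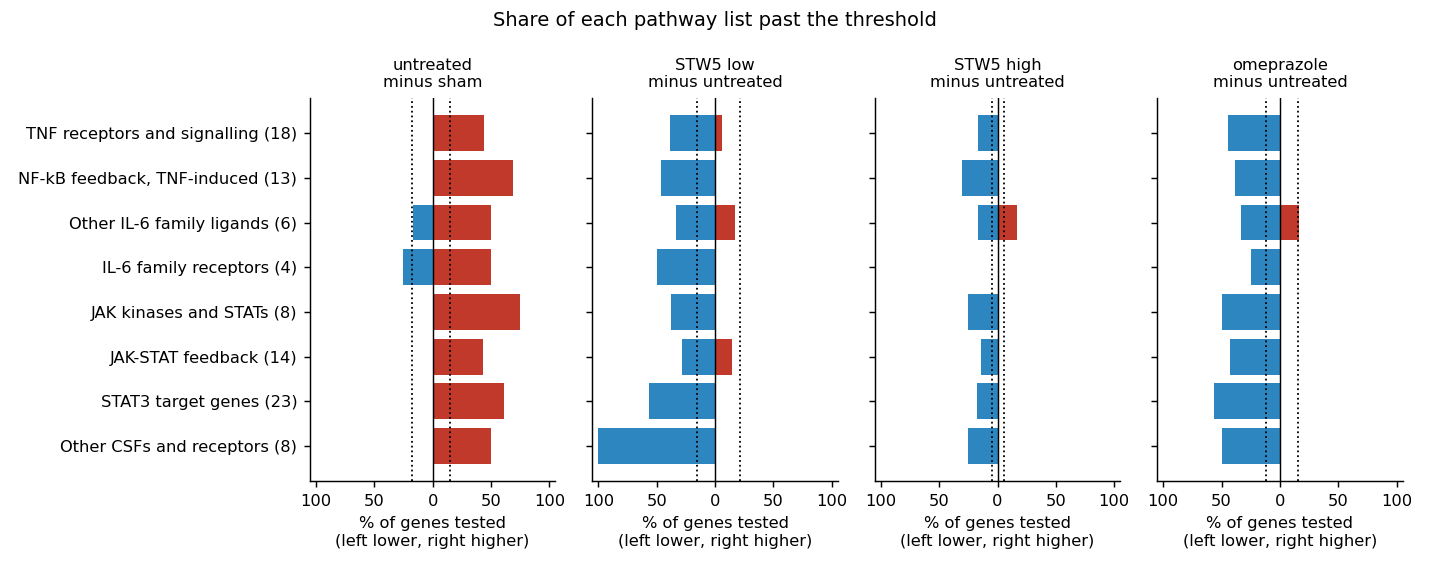
Share of the genes tested in each of 8 pathway lists (number tested in parentheses) that were called higher (right) or lower (left) at an adjusted p under 0.05, in untreated minus sham rats and in each treated group minus untreated rats. Dotted lines mark the shares over all 13597 genes, 15.0% higher and 17.9% lower in the first panel. The bars to the left are longer for low dose and omeprazole than for high dose, where 4 of 23 STAT3 target genes were lower against 13 of 23 in each of the other 2.

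Counts for the pathway lists stand beside the 15.9%, 4.38% and 12.2% of all genes called lower with low dose, high dose and omeprazole, and the 21.7%, 5.14% and 15.6% called higher. Of 18 TNF receptor and signalling genes, 7 were lower with low dose, 3 with high dose and 8 with omeprazole, and 1, Ikbkb, was higher with low dose (0.50 ± 0.13, adjusted p = 0.00580), under the share over all genes. Tnfrsf1b fell by 4.28 ± 0.69 with low dose (adjusted p = 0.000377) and by 3.47 ± 0.64 with omeprazole (adjusted p = 0.00119). Of 13 NF-kB feedback and TNF-induced genes 6, 4 and 5 were lower. Nfkbie was lower in each case, with differences of -2.32 ± 0.28, -1.60 ± 0.26 and -2.01 ± 0.26 (adjusted p = 0.000176, 0.00100 and 7.19e-05), and the high-dose calls also included Nfkbia at -1.49 ± 0.26 (adjusted p = 0.00214).

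Of 23 STAT3 target genes 13 were lower with low dose, 4 with high dose and 13 with omeprazole, and none was higher. The 4 lower with high dose were Il1rn, the interleukin 1 receptor antagonist, at -1.41 ± 0.28 (adjusted p = 0.00584), the anti-inflammatory cytokine Il10 at -2.85 ± 0.63 (adjusted p = 0.0119), the interleukin 4 receptor Il4r at -1.94 ± 0.47 (adjusted p = 0.0176) and Hif1a at -1.48 ± 0.38 (adjusted p = 0.0252). Among the JAK kinases and other STATs 3, 2 and 4 of 8 were lower, Jak2 and Stat5a with high dose at -0.88 ± 0.27 and -0.58 ± 0.16 (adjusted p = 0.0457 and 0.0308). In the JAK and STAT feedback list 4, 2 and 6 of 14 were lower, and 2 were higher with low dose, below the 21.7% over all genes. The other colony-stimulating factor and receptor genes were lower in 8 of 8 cases with low dose, 2 with high dose and 4 with omeprazole. Of the 4 other gp130 receptor genes 2, 0 and 1 were lower, with Il6st at -1.45 ± 0.31 for low dose (adjusted p = 0.00192). Of the 6 other ligand genes of the family 2, 1 and 2 were lower, and 1 was higher in each case. The higher gene was Ctf1, by 0.87, 0.75 and 0.82 (adjusted p = 0.00893, 0.0413 and 0.0111). Ebi3 had a mean of 2.45 in untreated rats and of -1.01, 0.45 and -1.12 with low dose, high dose and omeprazole.

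The marker lists moved here too. Neutrophil markers were lower in 9, 3 and 7 of 13 cases and macrophage markers in 14, 3 and 14 of 14. Squamous epithelial markers were higher in 9, 0 and 9 of 12 cases, skeletal muscle markers in 6, 3 and 4 of 11 and smooth muscle markers in 1, 0 and 3 of 7. Mast cell markers were lower in 5, 0 and 1 of 7 cases. Fibroblast markers were lower in 8, 0 and 2 of 9 cases, endothelial markers in 7, 0 and 4 of 9 and T and NK cell markers in 6, 0 and 3 of 9. The summed neutrophil level was 1.05 to 4.55 on low-dose, 4.62 to 5.71 on high-dose and 0.71 to 5.75 on omeprazole arrays, and the summed macrophage level 4.59 to 6.42, 7.09 to 7.86 and 5.80 to 6.63. The part of these shifts in the values of the 9 genes was not tested.

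Set against sham rats, 0 of the 9 genes were called in any treated group by limma, where 0.00735% of all genes were called with low dose, 8.55% with high dose and 1.57% with omeprazole. An unadjusted p under 0.05 was reached by Osmr with low dose, by Osmr, Csf3r, Socs3 and Stat3 with high dose, and by none with omeprazole. The share of all genes past that unadjusted limit was not counted, so the names are given as a description only. The high-dose differences from sham were 3.22 ± 1.06 for Csf3r (95% interval 0.99 to 5.46, adjusted p = 0.0659), 1.82 ± 0.62 for Socs3 (95% interval 0.50 to 3.14, adjusted p = 0.0780) and 0.54 ± 0.18 for Stat3 (95% interval 0.15 to 0.92, adjusted p = 0.0751). For Csf3r, not above background on 3 of the 4 sham arrays, the value was 2.07 with signals raised to background and 1.05 with normexp. Every high-dose array of Stat3 lay above every sham array, as in 9.80% of all genes. Every low-dose array of Osm also lay above every sham array, as in 4.00% of all genes, with a difference of 0.73 ± 0.57 (adjusted p = 0.724). No sham or low-dose array had Osm above background in both spots. Without sham replicate 2, Csf3r (4.16, adjusted p = 0.0158) and Socs3 (2.18, adjusted p = 0.0431) were called, as they were without high-dose replicate 1 (3.96 and 2.35, adjusted p = 0.0396 and 0.0312). With array weights, 8 genes were called higher with high dose, 4 with omeprazole and 1 with low dose. That setting called far more genes either way, 7089, 3564 and 2590 of the 13597 tested. For low dose and omeprazole the intervals of the Tnf difference from sham, -0.85 to 2.33 and -0.80 to 2.15, do not show that the levels were alike.

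**Figure D5:**
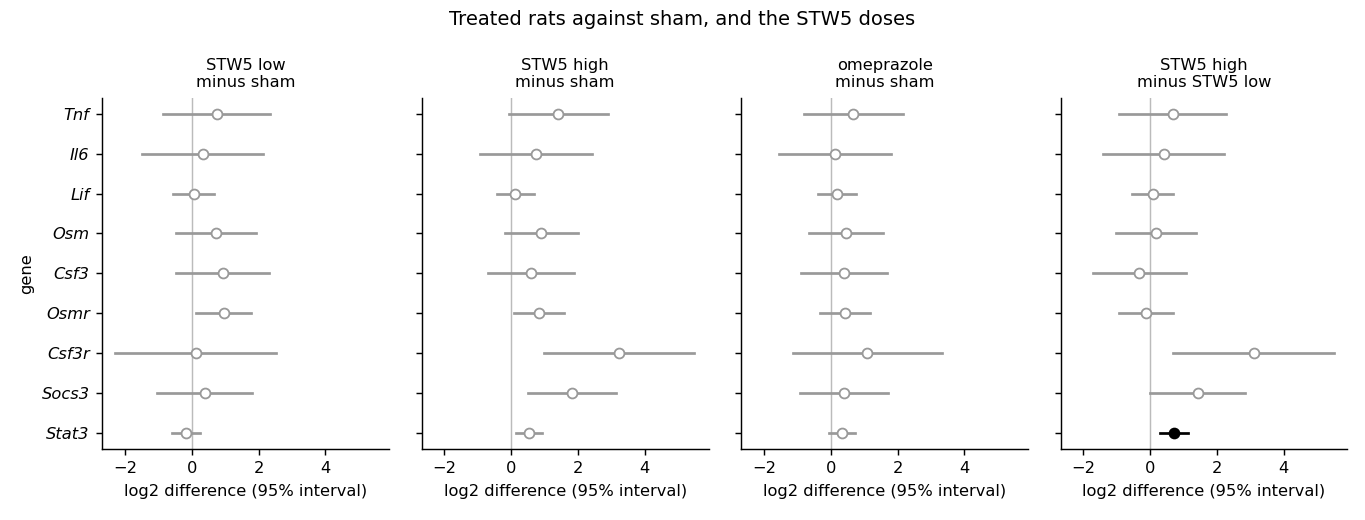
Difference of each gene (log2, point) with its 95% interval (line) in the 3 treated groups minus sham rats and in high-dose minus low-dose STW5. Filled black points are past an adjusted p of 0.05 and open grey points are not. Csf3r lies at 3.22 in high dose minus sham and at 3.10 in high minus low dose with wide intervals, and Stat3 at 0.72 in high minus low dose is the filled point.

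Between the STW5 doses, 1 of 9 genes was called higher with high dose against 10.7% of all genes, and 0 were lower against 13.2%. That gene was Stat3, at 0.72 ± 0.20 (95% interval 0.31 to 1.14, adjusted p = 0.0165), with the 4 high-dose arrays at 0.85 to 0.98 above the low-dose arrays at 0.06 to 0.34. Without low-dose replicate 3, which leaves fewer low-dose samples, it was 0.69 with adjusted p = 0.0628. The difference was thus little changed while the call was lost. With the dose labels exchanged the difference is -0.72. Csf3r was 3.10 ± 1.14 higher in the fit (adjusted p = 0.0573) and Socs3 1.43 ± 0.67 (adjusted p = 0.129), and neither passed the threshold. With signals raised to background Csf3r was 2.22 higher and with normexp 0.98. Csf3r was called without high-dose replicate 1 or low-dose replicate 4 (adjusted p = 0.0290 and 0.0382), and Socs3 without high-dose replicate 1 (adjusted p = 0.0424). With all 20 arrays counted as 20 samples, 3 of 9 genes were higher. That setting called 4728 of all genes either way, against 3252 of 13597 with the 19 samples. For Tnf, Osm and Csf3 the differences between doses were 0.67, 0.18 and -0.33, with 95% intervals of -0.92 to 2.26, -1.02 to 1.37 and -1.72 to 1.06.

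Against omeprazole, 0 of 9 genes were called with high dose, where 0.221% of all genes were, and 0 with low dose, where 2.41% were. At an unadjusted p under 0.05, Socs3 passed in the first (1.43 ± 0.62, adjusted p = 0.251) and Stat3 in the second (-0.53 ± 0.20, adjusted p = 0.149). The share of all genes past that unadjusted limit was not counted here either. The high-dose and omeprazole arrays lay on the same slide, and within it 0 of 9 genes were called as well, with Socs3 at an adjusted p of 0.161.

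The genes whose levels followed each member most closely over the 19 samples are given as a description, since samples share slides, group and array. Csf3r ran closest to Plek, a protein of platelets and leukocytes (Pearson r = 0.978), Clec4a2 (0.974) and Ifit3 (0.971), and 191 genes had an r over 0.9 with it. Socs3 ran closest to Prok2 (0.968), Plek (0.959) and the inflammasome sensor Nlrp3 (0.956). Tnf ran closest to Ceacam4 (0.968), Lst1 (0.966) and C8h19orf38 (0.960), Il6 to the neutrophil collagenase Mmp8 (0.959), Agfg1 (0.953) and Pvr (0.947), and Osm to Mcemp1 (0.948), Arg1 (0.946) and Nlrp3 (0.941). Il6 and Mmp8 were each well above background on only 5 of 20 arrays, so most values behind their r lie near background. Csf3 ran closest to Gk (0.952), Hist2h3c (0.951) and Litaf (0.951), and Osmr to Rap1b (0.912), Vmp1 (0.912) and the kinase Jak2 (0.909). Stat3, with Mcfd2 (0.883), Bcap29 (0.880) and Rbm28 (0.868), and Lif had 0 genes with an r over 0.9.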

How the data were processed

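Scanner files as deposited give an intensity for each feature, background-subtracted and detrended, from Agilent Feature Extraction 10.7.3.1 per the file headers, which name build rn4 for the probes. Their value table gives, as deposited, the ratio of each signal to the median of its array and served only as an alternative. The 12 sham, untreated and omeprazole columns of that table match their own scanner file, and the 8 STW5 columns match the other dose.

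Spots flagged as outliers were left out, spots of a probe were averaged as log2 values and each array's 75th percentile was subtracted. Genes were represented by their brightest probe. All 5 groups were fitted together with limma 3.58.1 in R 4.3.3, with 14 residual degrees of freedom, and the fit was tested on simulated data. The number of arrays limits the precision, with a median SE of 0.245 in untreated against sham. The labels give 4 animals a group.

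The members and gene lists were chosen with earlier results of these data known. By rule the text names all 9 members, up to 4 genes with the smallest p from each list, and the 3 genes most alike, which for Lif are not reported here. Alternatives changed the scaling, background, filter, probe rule, samples, weights, replicate block and dose labels.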

Additional observations from a re-analysis of the deposited data

Results flagged for a closer look

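In groups of 4 samples, a value was singled out where its gap to the nearest other value, as a share of the range, exceeded Dixon's 95% critical value. Chance singles out about 1 group in 20, and 2 of 36 were. Untreated replicate 3 was the highest untreated array for Stat3, at 1.14 against 0.49 to 0.53. Omeprazole replicate 1 was the lowest omeprazole array for Il6, at -7.62, where no array of the group was above background. Stat3 differed between the 2 doses of STW5 by 0.72 (adjusted p = 0.0165) in the direct test of high against low dose. In that test 10.7% of all genes were called higher.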

How the results depend on the processing

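Of 928 member differences recomputed under alternatives, 815 kept their direction and side of the threshold, 51 lost a call, 37 gained one and 25 changed sign. In untreated against sham the count stayed at 5 to 8 of 9. With STW5 doses exchanged, or from the deposited value table, 4 genes were called lower with low dose and 7 with high dose. With array weights the counts were 2 for high dose against untreated, 1, 8 and 4 for low dose, high dose and omeprazole against sham, 3 between the doses, and 1 each for high and low dose against omeprazole. Of the 13597 genes tested, the weights called 1784, 2590, 7089, 3564, 6342, 2257 and 2729 in that order. Between the doses the count was 3 with all 20 arrays (all higher with high dose), 3 with normexp (Stat3 higher, Lif lower by 0.42 and Osmr by 0.52) and 2 without a filter or with only the 2 groups compared. These settings called 4728, 5432, 5732 and 3306 genes in all. Comparing only the 2 groups gave 1 for high dose against untreated, with 480 genes called in all. High dose against sham gave 1 with quantile normalization and 1 with normexp, and low dose against omeprazole gave 2 with normexp. The genes called in all were then 1217, 1438 and 1603. With each array left out in turn, the counts were 0 to 6 for high dose against untreated, 0 to 2 for high dose against sham and 0 to 3 between the doses.

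Replicate numbers were not used to pair the rats in the main fit. After group means were removed, r was over 0.1 for 19 of 40 same-numbered pairs (median 0.08, -0.32 to 0.58). The median r was -0.0066 for pairs with other numbers, and 6 of 20 arrays were closest to their own number. These values cannot show whether the rats were paired. With the replicate number as a block on all 20 arrays, 3 genes were called between the doses, the count all 20 arrays also gave without the block, 8 for low and 3 for high dose against untreated. In these comparisons the block fit called 4986, 6325 and 1663 genes in all.

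Signs that changed were these. Stat3 in omeprazole against untreated was -0.073 with median scaling and -0.077 to -0.0096 with single arrays left out (-0.0096, -0.023, -0.021, -0.052 and -0.077). With normexp, Osmr was 0.045 in low dose against untreated and -0.20 in high dose against sham (-0.061 with signals raised to background), and Lif was -0.081 for high dose and -0.081 for omeprazole against untreated. With the doses exchanged, and in the value table alike, Stat3 was 0.23 for low and -0.50 for high dose against untreated, -0.19 for high dose against sham, -0.72 between the doses and 0.19 for low dose against omeprazole, and Csf3r and Socs3 were -3.10 and -1.43 between the doses. For these sign changes, other than those of the dose labels, the cause was not tested. Median scaling moved the median of all genes most in low dose against omeprazole, from 0.051 to 0.26. Il6, Lif, Osm, Osmr and Csf3r were not well above background on some arrays, nor was Tnf on sham replicate 3, which limits their differences.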
